A study of Mus musculus with 4 samples.

Results

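The platelet-derived growth factor (PDGF) genes of the mouse are 4 ligand genes, Pdgfa, Pdgfb, Pdgfc and Pdgfd, and 2 receptor genes, Pdgfra and Pdgfrb. They were chosen by family membership and not by a measured value, and they are 6 of the 33696 gene features counted. All 6 had UMIs (unique molecular identifiers, each marking 1 captured RNA molecule) in every matrix.

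PDGF ligands are secreted dimers. PDGF-A and PDGF-B are cut into their active form inside the cell, whereas PDGF-C and PDGF-D carry a CUB domain that is removed outside it. Both receptors are tyrosine kinases, and ligand binding pairs 2 receptor molecules. PDGFRα binds the A, B and C chains and is a textbook marker of oligodendrocyte precursors and of many fibroblasts, whereas PDGFRβ binds the B and D chains and marks pericytes and other mural cells, which reach brain vessels in development through PDGF-B released by endothelium.

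Nuclei came from mouse brain 21 days after photothrombotic injury (dpi), in which a light-activated dye closes cortical vessels. One library was labelled control, with the genotype given as wild type, and the other Cxcl12-cKO, from mice with Col1a2(creER) and Cxcl12(flox), in which the inducible Cre is driven by the promoter of a fibrillar collagen gene and is meant for fibroblasts. Each library pooled 1 male and 1 female mouse, and multiplexing tags told nuclei of the lesion (loaded as 75%) from nuclei of the surrounding parenchyma (25%), which gave 4 matrices. The ages of the mice are not given in the labels used here. With 1 library in each group, no test between genotypes was possible. Paired values are given in the order control, then Cxcl12-cKO, as the libraries were labelled. All intervals are 95% intervals of counting error alone, and do not cover differences between mice or between the nuclei of a class.

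The lesion matrices held 8608 and 8421 barcodes with 34769874 and 31995274 UMIs, and the parenchyma matrices held 3244 and 3216 barcodes with 62701074 and 62749811 UMIs. After filtering, 21743 of 23489 barcodes were kept, with a median of 2962 to 2975 UMIs per lesional nucleus and 15915 to 16648 per parenchymal nucleus. The libraries shared 47 barcode sequences, and the regions of a library shared none (0). The targeted gene went against the labels, since Cxcl12 stood at 105.9 CPM (UMIs of the gene per 1000000 UMIs of the class, interval 100.6 to 111.4) and at 215 CPM (207.6 to 222.7) in lesional fibroblast-like nuclei, higher where the knockout label stands. The sources used here do not give the part of Cxcl12 that is removed, so 3′ counts may not check the deletion, and directions between the libraries rest on the labels alone.

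Summed over whole matrices, Pdgfd had 9493 and 8314 UMIs in the lesion and 286 and 368 in the parenchyma. Pdgfra had 2895 and 3363 UMIs in the lesion and 199 and 184 in the parenchyma, and Pdgfrb had 2858 and 3225 in the lesion and 192 and 231 in the parenchyma. As sums over whole matrices these 3 genes were higher in the lesion, at 82.2 to 273 CPM of the matrix there and at 2.93 to 5.87 CPM in the parenchyma. The matrices differ in their cell classes, and within classes the regional ratios of these genes, given below, ran both ways. The other ligands were spread over both regions. Pdgfc had 3849 and 4457 UMIs in the lesion and 4683 and 4864 in the parenchyma, Pdgfa had 782 and 1033 against 1053 and 1014, and Pdgfb had 875 and 1018 against 950 and 798.

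The cell classes that held these UMIs differed by gene. Fibroblast-like nuclei were 51.3% of kept lesional nuclei and gave 44.9% of their UMIs, but 84.0% (interval 83.1 to 84.9) of those of Pdgfra, 79.3% (78.2 to 80.3) of Pdgfrb and 78.0% (77.4 to 78.6) of Pdgfd. Their share of Pdgfc was 46.4% (45.3 to 47.5), close to their share of all UMIs. Myeloid-like nuclei, which hold microglia, macrophages and a smaller monocyte- and dendritic-like group, were 22.1% of lesional nuclei with 14.3% of the UMIs. They gave 65.5% (63.3 to 67.7) of the UMIs of Pdgfb, 35.5% (33.3 to 37.8) of Pdgfa and 26.4% (25.5 to 27.4) of Pdgfc. In the parenchyma, excitatory-neuron-like nuclei gave 83.7% of Pdgfa, 88.0% of Pdgfb and 93.1% of Pdgfc UMIs, where they held 80.9% of all UMIs. Oligodendrocyte-precursor-like nuclei, with 0.163% of parenchymal UMIs, gave 49.1% of those of Pdgfra.

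Pdgfa, a ligand of PDGFRα, was highest in glial and myeloid classes of the lesion. In astrocyte-like nuclei it stood at 69.4 and 67.1 CPM. In myeloid-like nuclei the values were 58.1 and 74.6 CPM, and in oligodendrocyte-like nuclei 29.5 and 61.8 CPM. In the order of levels, the log2 ratio of each of these classes to its next neighbour had an interval that held 0. Fibroblast-like nuclei were at 16.0 and 16.7 CPM. Mural-like nuclei came first in the order at 75.9 CPM, but on 12 UMIs, and ependymal-like nuclei at 58.7 CPM on 19.

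Pdgfb, the ligand that endothelium supplies to pericytes, was high in 2 lesional classes. Endothelial-like nuclei had 155.8 and 136.7 CPM. Myeloid-like nuclei had 126.3 and 132.8 CPM, within counting error of the endothelial value (log2 ratio 0.20, interval −0.18 to 0.53). Every other class lay at or below 35.8 CPM, and fibroblast-like nuclei were at 2.38 and 1.78 CPM, with 60 UMIs over 8227 nuclei. The fall from myeloid-like nuclei to the next class, T-cell-like, was 1.81 on the log2 scale (1.11 to 2.74). The endothelial value depended on how nuclei were classed, being 49.1 CPM when nuclei were classed singly by their markers.

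Pdgfc, a ligand of PDGFRα that needs extracellular cleavage, was broadly expressed. Myeloid-like nuclei led at 202.3 and 254.2 CPM. Fibroblast-like nuclei had 115.8 and 144.5 CPM, and astrocyte-like nuclei 120.1 and 91.8 CPM. Between myeloid-like and fibroblast-like nuclei lay dividing nuclei (199.3 CPM over both libraries), osteoblast-lineage-like nuclei (185.6 CPM) and mural-like nuclei (151.8 CPM on 24 UMIs). Neighbours in this row did not differ beyond counting error, but small classes lie between its ends. The ends were well apart, with myeloid-like nuclei at 233.4 CPM on 2143 UMIs and fibroblast-like nuclei at 130.3 CPM on 3765. Inhibitory-neuron-like nuclei were lowest at 15.4 CPM, against 76.2 CPM in excitatory-neuron-like nuclei.

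Pdgfd, the protease-activated ligand of PDGFRβ, reached the highest level of the 6 genes in any lesional class. Osteoblast-lineage-like nuclei, in which 5 of 6 lineage markers had UMIs and Dmp1 was at 0, stood at 1057 and 689.7 CPM, and endothelial-like nuclei at 889.9 and 820.4 CPM. Fibroblast-like nuclei followed at 480.6 and 459 CPM, 1.02 log2 units (0.57 to 1.56) above the next class, mural-like. Myeloid-like nuclei were at 11.7 CPM and excitatory-neuron-like nuclei at 2.93 CPM over both libraries. For this ligand fibroblast-like nuclei were far above myeloid-like nuclei, the reverse of Pdgfb. T-cell-like nuclei had 140.5 CPM of Pdgfd on 55 UMIs, of which the 25 in the library labelled Cxcl12-cKO came from 5 nuclei, 17 of them from 1. The 7 fibroblast markers summed to 1451 to 2514 CPM in T-cell-like nuclei, with Lum at 0 in 1 library, and the part of fibroblast RNA in this value was not tested. The endothelial level was 534.7 CPM when nuclei were assigned by their own markers.

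Pdgfra was highest in oligodendrocyte-precursor-like nuclei, at 525.8 and 609.2 CPM in the lesion, over 60 nuclei. Fibroblast-like nuclei had 165.4 and 194.8 CPM, dividing nuclei 308.4 and 201.8 CPM, and osteoblast-lineage-like nuclei 149.6 and 134.2 CPM. In the dividing nuclei the fibroblast markers summed to 7364 to 9098 CPM, close to the 7507 to 8456 CPM of fibroblast-like nuclei. All other classes lay at or below 55.2 CPM, a value held by unnamed glial nuclei led by Cdh19 and C1ql1. The precursor value rests on a small class: without the filter on nuclei it was 190.3 CPM, and with nuclei classed singly by their markers 104.5 CPM.

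Pdgfrb was highest in mural-like nuclei, at 770 and 684.2 CPM on 88 and 30 UMIs. Osteoblast-lineage-like nuclei had 217.4 and 296.2 CPM and fibroblast-like nuclei 148.5 and 178.6 CPM. The step from mural-like nuclei to the next class was 1.69 log2 units (1.36 to 2.00), and the step from fibroblast-like to astrocyte-like nuclei, at 64.2 CPM, was 1.35 (1.12 to 1.59). Endothelial-like nuclei, the neighbours of mural cells on the vessel wall, were at 10.4 CPM on 5 UMIs. The mural value was 229.9 CPM when nuclei were assigned by their own markers.

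**Figure D1:**
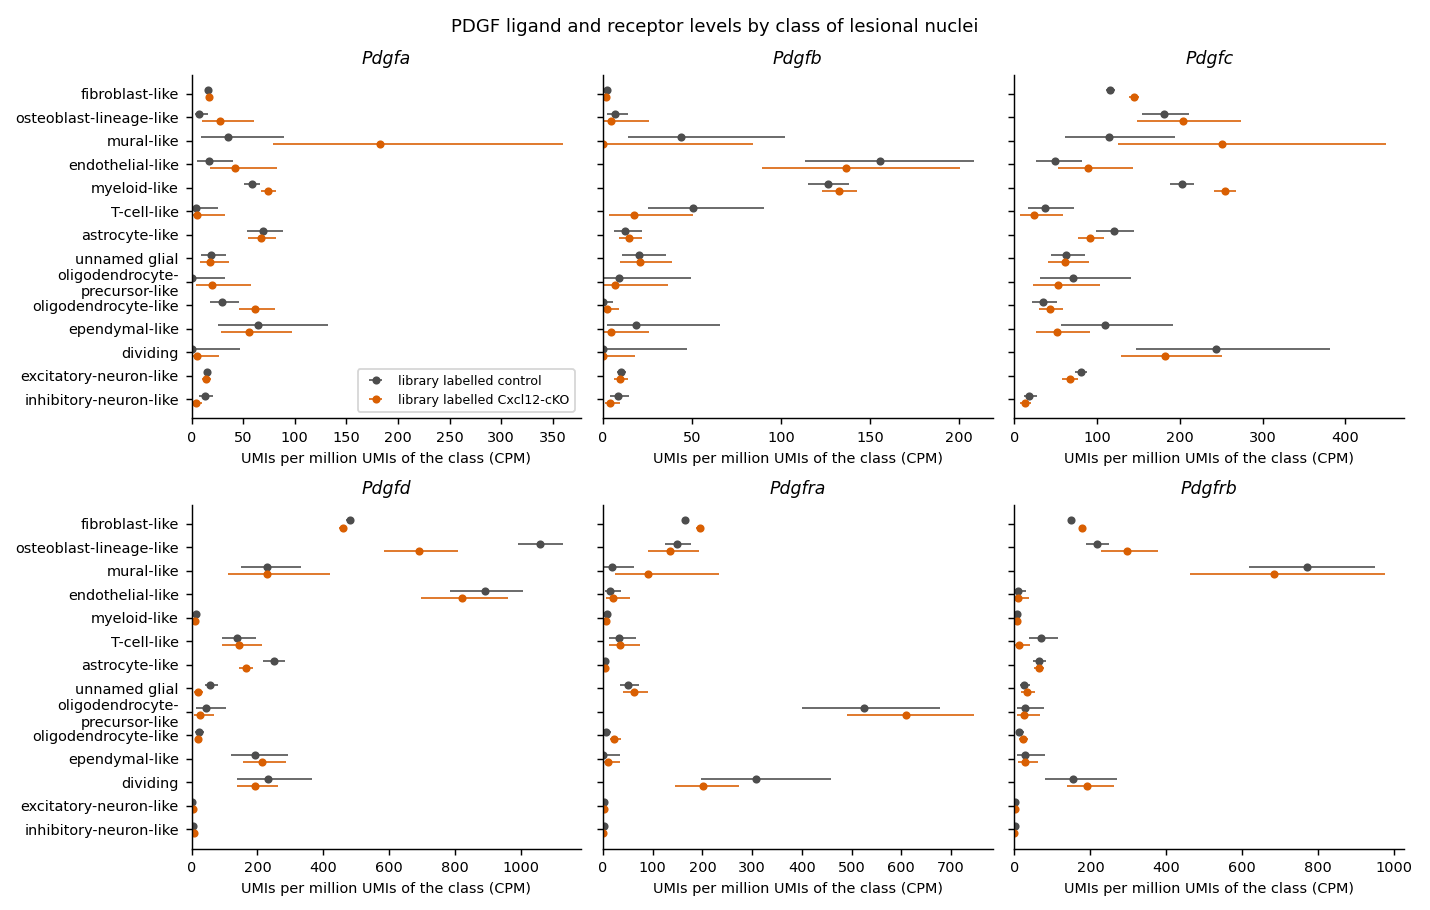
Level of each gene (x axis, CPM of the class, linear scale from 0) in the 14 classes of lesional nuclei (y axis), with a point for each library and bars for the exact 95% Poisson interval. Pdgfb stood out in endothelial-like and myeloid-like nuclei, Pdgfra in oligodendrocyte-precursor-like nuclei and Pdgfrb in mural-like nuclei, and the scale differs between panels.

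The share of nuclei with at least 1 UMI followed. In lesional fibroblast-like nuclei (median 3082 UMIs), 33.1% had a UMI of Pdgfra, 34.1% of Pdgfrb, 54.0% of Pdgfd and 24.1% of Pdgfc. With each nucleus thinned to 1000 UMIs, which left out 203 shallower nuclei, these shares were 14.8%, 14.0%, 30.7% and 10.1%. The background for the receptors was read from excitatory-neuron-like nuclei of the parenchyma, a type not known for either receptor. They had a UMI of Pdgfra in 1.59% and of Pdgfrb in 3.02% of nuclei at a median of 17865 UMIs, and in 0.0954% and 0.334% after thinning. The fibroblast shares of the receptors lay far above that background, but it may not hold for the lesion. Lesional excitatory-neuron-like nuclei had 2.51 CPM of Pdgfra and 1.67 CPM of Pdgfrb, against 0.905 and 1.80 CPM in parenchymal ones. Lesional T-cell-like nuclei had 33.2 and 43.4 CPM. In lesional myeloid-like nuclei (median 2164.5 UMIs) 23.2% had a UMI of Pdgfb, 26.4% of Pdgfc and 12.9% of Pdgfa, or 11.5%, 14.7% and 5.51% after thinning. For Pdgfb the fibroblast-like nuclei give a low reference, at 0.717% and 0.249% after thinning, whereas Pdgfc and Pdgfa were present in most classes and have no such reference. For the receptors, 56 of 3544 myeloid-like nuclei had a UMI of Pdgfra and 53 of Pdgfrb, or 0.689% and 0.749% of nuclei after thinning.

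UMIs of both receptors were found in some of the fibroblast-like nuclei. Of 8227 lesional fibroblast-like nuclei, 1212 had UMIs of both receptors, 1509 of Pdgfra without Pdgfrb, 1593 of Pdgfrb without Pdgfra, and 3913 of neither. After thinning, 217 of 8024 nuclei had both, 974 only Pdgfra and 905 only Pdgfrb. Pdgfd and its receptor Pdgfrb were found together in 1516 nuclei, and Pdgfc with its receptor Pdgfra in 751. With so few UMIs per nucleus, a missing UMI does not show that the gene was silent.

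Lesional fibroblast-like nuclei fell into 5 states, made without the PDGF genes. State 0, named late-inner-like (2141 nuclei), was led by Lama3, Erg and Matn4. State 3, dural-like (2030 nuclei), was led by Npr3, and state 4, leptomeningeal-like (861 nuclei), by Prex2 and Col4a6 among others. State 1 (3078 nuclei, led by Sptssb, Stra6 and Dpp4) and state 2 (117 nuclei, led by Sh3gl3, Ppp1r1a and Nnat) kept no name. The leptomeningeal markers were nevertheless their best match, with a mean log2 fold of 0.72 in state 1 and 2.70 in state 2. In state 4 it was 2.57, so the name leptomeningeal-like does not cover all nuclei with these markers. The name dural-like is weak as well. In state 3 the dural markers had a mean log2 fold of 0.58, where 0.5 was needed, with 3 of them raised. Dpp4, a leading gene of state 1, is itself on the dural list. Levels across states are given as a description, since the states were cut from the same nuclei.

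The receptors were both highest in state 4, the one named leptomeningeal-like, at this resolution. In state 2, which also had raised leptomeningeal markers, Pdgfra was at 191.5 and Pdgfrb at 149.5 CPM over both libraries. For Pdgfrb that place depended on how finely the states were cut: at resolution 0.6 a state of 590 nuclei, mostly of the late-inner-like state, was highest at 347.2 CPM (325.7 to 369.8), and the leptomeningeal-like one had 320.0 CPM (299.2 to 341.9). Pdgfra in state 4 was at 526.5 and 544.1 CPM. States 1, 2 and 0 lay at 166.3 to 197.7 CPM, and neighbours among them did not differ beyond counting error. The dural-like state was lowest for Pdgfra, at 53.8 and 60.6 CPM, 3.24 log2 units (3.09 to 3.40) below the highest. Pdgfrb had 306.5 and 337.2 CPM in the leptomeningeal-like state, 244.9 and 251.9 CPM in the late-inner-like state, and 84.9 and 108.5 CPM in the dural-like state. Its range was narrower, at 1.77 log2 units (1.63 to 1.92). Between the dural-like state and state 1, Pdgfra stood at 56.6 against 197.7 CPM and Pdgfrb at 94.7 against 109.1 CPM.

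The ligands ran along other states. Pdgfc was highest in the late-inner-like state, at 203.4 and 242.2 CPM, and next in the dural-like state, at 101.5 and 101.8 CPM, a step of 1.16 log2 units (1.04 to 1.28). It was near 0 in state 2, at 7.87 CPM on 3 UMIs. Pdgfd was highest in the dural-like state, at 717.8 and 777.4 CPM, with state 2 within counting error at 663.7 CPM over both libraries, and lowest over both libraries in the late-inner-like state, at 346.6 and 326.4 CPM, although state 1 was at 339.6 CPM in the library labelled control. Over both libraries the state with most Pdgfc had least Pdgfd, and the state with most Pdgfd had least of both receptors. In the library labelled Cxcl12-cKO, though, Pdgfrb was at 103.0 CPM in state 1, below its 108.5 CPM in the dural-like state. Neither pairing held at resolution 0.6. There the state with most Pdgfc had 237.4 CPM of Pdgfd, where the lowest value was 213.2 CPM. The state with most Pdgfd (784.1 CPM) had 72.3 CPM of Pdgfra and 125.3 CPM of Pdgfrb. Least of both receptors, at 19.1 and 57.9 CPM, was in a state with 782.5 CPM of Pdgfd. Pdgfa ranged from 7.87 to 24.2 CPM and Pdgfb did not exceed 2.70 CPM in any state, with 0 UMIs in state 2. Female and male nuclei had the same highest and lowest state for Pdgfra, Pdgfrb and Pdgfc, with Pdgfra in the leptomeningeal-like state at 522.4 CPM in females and 577.4 CPM in males. For Pdgfd the highest state was the dural-like one in males (728.1 CPM) and state 2 in females (833.8 CPM, against 747.8 CPM in the dural-like state).

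**Figure D2:**
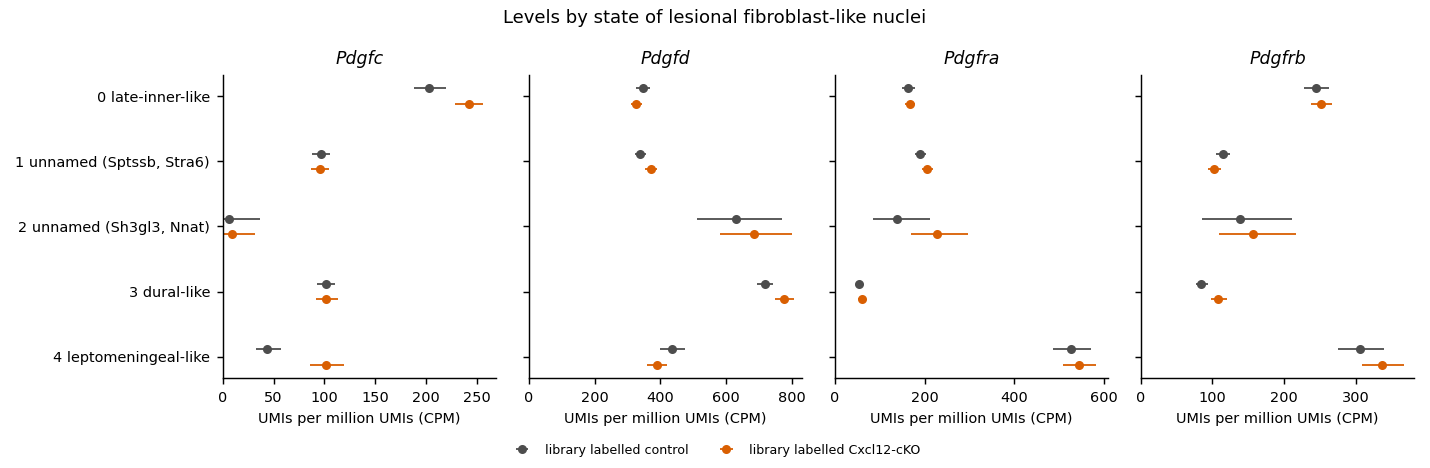
Levels of Pdgfc, Pdgfd, Pdgfra and Pdgfrb (x axis, CPM of the state, linear from 0) in the 5 states of lesional fibroblast-like nuclei (y axis), 1 point per library with the exact 95% Poisson interval. Pdgfc peaked in the late-inner-like state, Pdgfd in the dural-like state and both receptors in the leptomeningeal-like state, in each library.

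Myeloid-like nuclei of the lesion split by Pdgfc more than by the other ligands. A subcluster of 1475 nuclei led by F13a1 and Mfge8, which kept no name, had 389.6 and 435.8 CPM of Pdgfc. Homeostatic-microglia-like nuclei (1801) had 65.7 and 102.5 CPM, and monocyte- and dendritic-like nuclei (194) 28.7 and 21.5 CPM. The 74 dividing myeloid nuclei had 503.3 and 210.8 CPM. Pdgfb had the other order, with 146.7 and 154.3 CPM in homeostatic-microglia-like nuclei and 113 and 124.1 CPM in the F13a1-led subcluster, a difference of 0.33 log2 units (0.16 to 0.51). For Pdgfa the F13a1-led subcluster was at 79.4 against 64.4 CPM (0.30, 0.07 to 0.54).

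Within the other glia, Pdgfa differed between oligodendrocyte-like subclusters. A subcluster of 126 lesional nuclei led by Bcas1 and Enpp6, genes of newly formed oligodendrocytes, had 73.3 CPM (interval 54.0 to 97.1), against 27.0 CPM (16.9 to 40.8) in 308 nuclei led by Mog. Astrocyte-like nuclei fell into a subcluster led by Slc7a10 and Grin2c and one led by A2m and Gfap, the intermediate filament of reactive astrocytes. The first held 96.3% of parenchymal and 15.3% of lesional astrocyte-like nuclei. Within it Pdgfd was at 525.6 CPM (445.1 to 616.4) in the lesion and 128.7 CPM (96.4 to 168.4) in the parenchyma. The A2m- and Gfap-led subcluster had 151.5 CPM of Pdgfd, 72.1 CPM of Pdgfa and 62.0 CPM of Pdgfrb.

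Neurons of the parenchyma carried Pdgfc in a pattern by subtype. Nuclei led by Ccn2 and Cplx3, genes of the deepest cortical layer, had 199.3 and 197.1 CPM. Nuclei led by Ndst4 had 114.8 and 127.4 CPM, those led by Otof, an upper-layer gene, 93.1 and 103.4 CPM, and those led by Rorb, a gene of the middle layer, 38.8 and 38.4 CPM. Inhibitory-named subtypes ranged over both libraries from 3.49 CPM in nuclei led by Vip and Adarb2 to 34.5 CPM in nuclei led by Frmd7 among others. The subtype with Sox6, Sst and Lhx6 among its leading genes had 12.9 CPM. A leading gene does not assign every nucleus of a subtype to that interneuron type. Nuclei with Drd2 and Adora2a among their leading genes, known from striatal projection neurons, had 42.4 CPM (35.4 to 50.3), within counting error of the Rorb-led nuclei. The 4 subtypes led by Ccn2, Ndst4, Otof and Rorb stood in the same order in each library, but not every subtype kept its place. Nuclei led by Gm6209 and Dnah14 had 85.3 and 104.4 CPM, below and then above the Otof-led nuclei. The subtype with Foxp2 among its leading genes had 38.4 and 44.9 CPM, below and then above the Rorb-led nuclei.

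The main comparison of the study, between the genotypes, showed small differences for the PDGF genes in lesional fibroblast-like nuclei. A gene was called where its log2 ratio was at least 0.5 in size, its counting interval left out 0 and it had at least 50 UMIs over both libraries. None of the 6 genes was called, where 6.42% of 14310 genes were. Pdgfc went from 115.8 to 144.5 CPM (log2 ratio 0.32, interval 0.23 to 0.41), Pdgfra from 165.4 to 194.8 CPM (0.24, 0.16 to 0.32) and Pdgfrb from 148.5 to 178.6 CPM (0.27, 0.18 to 0.35). The ratio of Pdgfd was −0.07 (−0.12 to −0.02), that of Pdgfa 0.07 (−0.20 to 0.33) and that of Pdgfb −0.41 (−1.22 to 0.36). All 3 intervals of Pdgfc and the receptors left out 0, but the differences stayed below the size set for a call.

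Values by mouse and by state stood beside these ratios as follows. For Pdgfra the ratio was 0.55 (0.41 to 0.68) between the female mice and 0.06 (−0.06 to 0.19) between the males. For Pdgfrb it was 0.70 (0.56 to 0.84) between the females and −0.06 (−0.19 to 0.07) between the males, and the difference between the sexes was not tested. Pdgfc was 0.24 in females and 0.32 in males. State shares differed as well: the late-inner-like state held 920 of 4157 and 1221 of 4070 fibroblast-like nuclei, the leptomeningeal-like state 9.12% and 11.8%, and the dural-like state 27.8% and 21.5%. With the states weighted alike in both libraries, a setting chosen after seeing the data, the ratios were 0.09 for Pdgfra, 0.06 for Pdgfrb, 0.18 for Pdgfc and 0.05 for Pdgfd.

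Inside the states, Pdgfc in the leptomeningeal-like state was the 1 call. Its levels were 43.3 CPM on 51 UMIs and 101.5 CPM on 155, with a log2 ratio of 1.22 (0.76 to 1.72), with 2.48 between the female mice and 1.47 between the males, where nuclei assigned to neither sex or to both are left out. The share of all genes called was 7.23% in state 0, 5.97% in state 1, 9.78% in state 2, 5.44% in state 3 and 6.96% in state 4. The 6 genes were searched in all 5 states wherever they had enough UMIs. The 1 call therefore cannot be read as particular to the PDGF genes. In the leptomeningeal-like state, where both receptors were highest, the ratio was 0.05 for Pdgfra and 0.14 for Pdgfrb. The largest receptor ratios were 0.70 (−0.04 to 1.52) for Pdgfra in state 2, on 21 and 52 UMIs, and 0.35 (0.15 to 0.56) for Pdgfrb in the dural-like state, neither of them a call.

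**Figure D3:**
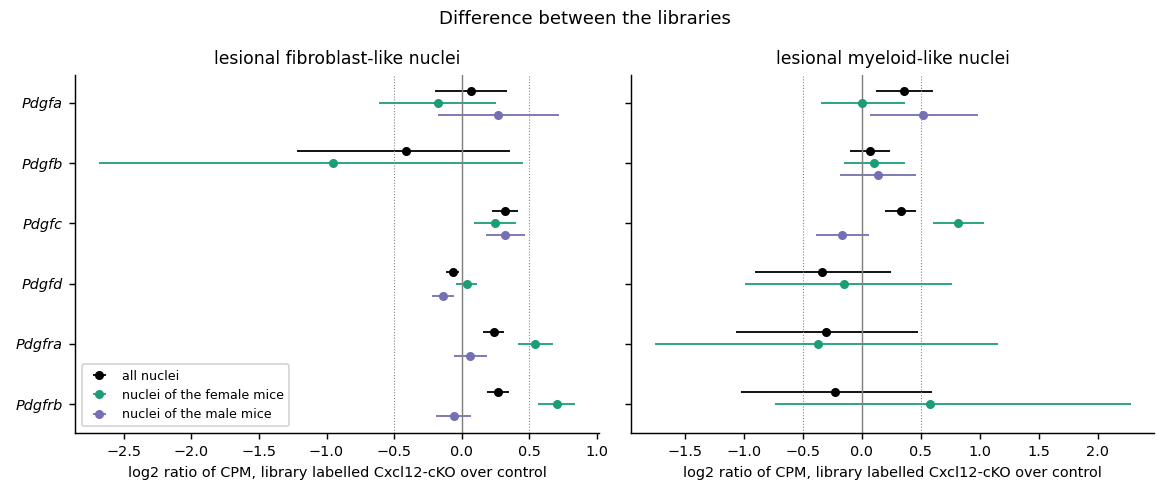
Log2 ratio of CPM between the libraries, labelled Cxcl12-cKO over labelled control (x axis), for the 6 genes (y axis) in lesional fibroblast-like (left) and myeloid-like nuclei (right), for all nuclei and for nuclei of the female and the male mice, with exact 95% counting intervals and dotted lines at the size needed for a call. Points without enough UMIs are left out, and the receptors in fibroblast-like nuclei lie at 0.55 and 0.70 for the females and at 0.06 and −0.06 for the males.

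In lesional myeloid-like nuclei none of the 6 genes was called, against 6.94% of all genes. The ratio was 0.33 (0.20 to 0.46) for Pdgfc, 0.36 (0.12 to 0.60) for Pdgfa and 0.07 (−0.10 to 0.24) for Pdgfb. Pdgfc went opposite ways in the mice, at 0.81 (0.60 to 1.03) between females and −0.16 (−0.39 to 0.06) between males. Female over male within a library, Pdgfc was at −0.79 in the one labelled control and 0.19 in the other. In the homeostatic-microglia-like subcluster Pdgfc was called, at 65.7 and 102.5 CPM (0.64, 0.33 to 0.96), with 1.18 in females and 0.30 in males, against 6% of all genes. In the F13a1-led subcluster none was called, against 7.86%. In the 74 dividing myeloid nuclei Pdgfc was called in the other direction, at 503.3 and 210.8 CPM on 45 and 50 UMIs (−1.26, −1.87 to −0.64), with −0.35 in females and −1.96 in males, against 11.1% of all genes.

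Other classes gave single calls. In astrocyte-like nuclei of the lesion 1 of 4 genes with enough UMIs was called, against 8.15% of all genes. Pdgfd fell from 249 to 164.4 CPM (−0.60, −0.87 to −0.33), with −0.30 in females and −1.43 in males. The subcluster led by Slc7a10, with 558.4 and 434.3 CPM of Pdgfd, made up 27.6% and 6.29% of these nuclei. In the A2m- and Gfap-led subcluster the values were 155.1 and 149.6 CPM. With nuclei assigned by their own markers the class ratio was −0.09. In parenchymal astrocyte-like nuclei Pdgfd was called in the other direction, 1 of 2 genes against 10.6%, at 71.9 and 170.3 CPM (1.21, 0.33 to 2.24). It rests on 14 and 39 UMIs, with all 14 of the first library from 5 nuclei, none (0) of them in female and 12 in male nuclei, and the male ratio was 0.30.

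In oligodendrocyte-like nuclei 1 of 2 genes was called, against 9.23%. Pdgfa rose from 29.5 to 61.8 CPM on 19 and 51 UMIs (1.04, 0.28 to 1.91), with 1.15 in females and 0.80 in males. In the Bcas1- and Enpp6-led subcluster it stood at 42.9 and 95.8 CPM. In osteoblast-lineage-like nuclei 1 of 4 was called, against 9.15%: Pdgfd, at 1057 and 689.7 CPM (−0.61), with −1.48 in females and −0.09 in males. This class had 345 and 85 nuclei.

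As whole classes, neurons gave 2 calls. None of 3 genes was called in lesional excitatory-neuron-like nuclei, where 5.82% of genes were. In the parenchyma 1 of 6 was called in excitatory-neuron-like nuclei, against 3.4%. That was Pdgfra, at the background level of 0.663 and 1.15 CPM, and its ratio of 0.79 was −0.16 when each nucleus was weighted alike. Pdgfb there had 16.7 and 13.4 CPM (−0.32, −0.49 to −0.15). In parenchymal inhibitory-neuron-like nuclei 1 of 6 was called, against 3.59%: Pdgfd, on 16 and 40 UMIs (1.03, 0.19 to 2.00). The 6 genes were also searched in 17 neuron subtypes and both regions wherever UMIs were enough, and 4 ratios were called. Pdgfc was lower in lesional nuclei led by Otof (104.2 and 69.5 CPM, −0.57, −1.09 to −0.11, against 7.84% of all genes), where the parenchymal ratio was 0.15. Among parenchymal subtypes Pdgfc was higher in the one with Sox6, Sst and Lhx6 among its leading genes (8.39 and 16.7 CPM, 0.97, 0.28 to 1.74, against 4.31%). It was lower in 81 nuclei led by Fermt1 among others (72.1 and 33.2 CPM, −1.10, −1.88 to −0.39, against 6.6%). Pdgfb was lower in the subtype with Foxp2 among its leading genes (101 and 52 UMIs, −0.93, −1.45 to −0.44, against 3.98%). Each of the 4 had the same sign in female and male mice.

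The second comparison, lesion over parenchyma, sets nuclei of the same class and of both libraries side by side. In fibroblast-like nuclei 4 of 6 genes were called, where 21.3% of 14362 genes were. Pdgfc was higher in the lesion in each library, at 115.8 against 17.9 CPM and at 144.5 against 23.4 CPM, or 2.58 log2 units (1.74 to 3.79), although the parenchyma gave only 9 UMIs over 101 nuclei. Pdgfrb was higher as well, at 163.7 against 84.7 CPM (0.93, 0.49 to 1.46), with 0.77 and 1.04 in the libraries. Pdgfra was at 180.2 against 107.5 CPM (0.73, 0.33 to 1.19), but the ratio was 1.39 in females, 1.23 in males and −0.04 with each nucleus weighted alike, and in the parenchyma 5 nuclei gave 21 of the 28 UMIs of the library labelled control, with 17 of 19 from 5 nuclei otherwise. Pdgfa was lower in the lesion, at 16.3 against 38.9 CPM (−1.29), with −2.02 and 0.03 in the libraries, on 14 and 3 parenchymal UMIs. Pdgfd was not called, at 469.7 against 588 CPM (−0.33, −0.50 to −0.14).

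Dural and late-inner markers differed between the regions, whereas the shares of the main fibroblast clusters were close. The cluster led by Slc47a2 held 61.3% of lesional and 59.4% of parenchymal fibroblast-like nuclei, and that led by Slc6a20a held 38.7% and 40.6%. The 5 dural markers summed to 940.5 to 1251 CPM in lesional and 2570 to 2682 CPM in parenchymal fibroblast-like nuclei, and the 5 late-inner markers to 1419 to 1446 against 651.7 to 808.8 CPM. The part of fibroblast type in the regional ratios was not tested.

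In myeloid-like nuclei 2 of 6 genes were called, against 22.1% of all genes. Pdgfc was at 202.3 against 34.7 CPM and at 254.2 against 40.5 CPM, or 2.49 log2 units (1.48 to 4.05), on 6 parenchymal UMIs. Pdgfa was at 68.0 against 12.8 CPM on 2 parenchymal UMIs (2.09, 0.55 to 5.46). For Pdgfa the interval held 0 in the library labelled control, with 0 parenchymal UMIs, and in females (−0.52 to 4.40). Pdgfb was not called, at 130.2 against 95.9 CPM (0.39, −0.29 to 1.28). Homeostatic microglia markers summed to 1033 to 1206 CPM in the lesion and 3927 to 4342 CPM in the parenchyma, and scar macrophage markers to 2913 to 3563 against 809.7 to 1077 CPM, with Itgax at 0 in the parenchyma. Their part in the Pdgfc ratio was not tested, and lesional homeostatic-microglia-like nuclei alone had 86.4 CPM of Pdgfc.

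In astrocyte-like nuclei 3 of 4 genes were called, against 37.9% of all genes, so their share cannot be read as particular to the PDGF genes. Pdgfa was at 69.4 against 10.3 CPM and at 67.1 against 17.5 CPM (2.15, 1.11 to 3.73). Pdgfrb was lower in the lesion, at 64.2 against 125.1 CPM (−0.97, −1.42 to −0.48), with −0.71 and −1.18 in the libraries, where the interval of the first held 0. Pdgfd was called at 0.64 (0.24 to 1.09), but the ratio was 1.75 and −0.07 in the libraries, and 1.83 in females and −0.48 in males. The 2 regions held different subclusters of this class, as given above, and astrocyte markers summed to 9519 to 9572 CPM in the lesion and 14471 to 14749 CPM in the parenchyma.

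The receptor genes of precursor and mural cells were lower in the lesion. In oligodendrocyte-precursor-like nuclei Pdgfra was at 525.8 against 971.2 CPM and at 609.2 against 1346 CPM (−0.93, −1.26 to −0.61), the 1 gene with enough UMIs where 27.4% of genes were called. The female ratio was −1.11 and the male ratio −0.50. Markers of precursors summed to 18660 to 23859 CPM in lesional and 18928 to 19871 CPM in parenchymal oligodendrocyte-precursor-like nuclei, and fibroblast markers to 504.4 to 1533 against 114.3 to 175.6 CPM. In mural-like nuclei Pdgfrb was at 770 against 1945 CPM and 684.2 against 1569 CPM (−1.20, −1.62 to −0.77), again the 1 gene tested, where 39.5% of genes were called. The median ratio of all genes was 0.40 in mural-like, 0.11 in oligodendrocyte-precursor-like, 0.17 in astrocyte-like and −0.18 in excitatory-neuron-like nuclei. Mural markers moved the same way, from 13384 to 13727 CPM in parenchymal to 5520 to 6116 CPM in lesional mural-like nuclei, and the parenchyma held 21 such nuclei. In neurons, Pdgfb was lower in lesional excitatory-neuron-like nuclei, at 10.1 against 15.1 CPM (−0.57, −0.89 to −0.28), and Pdgfra was at 2.51 against 0.905 CPM, 2 of 6 genes against 27.3%. Fibroblast markers there summed to 71.8 to 93.4 CPM in lesional and 41.3 to 49.6 CPM in parenchymal excitatory-neuron-like nuclei, and their part in the Pdgfra value was not tested. Pdgfc was lower in inhibitory-neuron-like nuclei, at 15.4 against 23.3 CPM (−0.58), 1 of 6 against 23.4%.

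**Figure D4:**
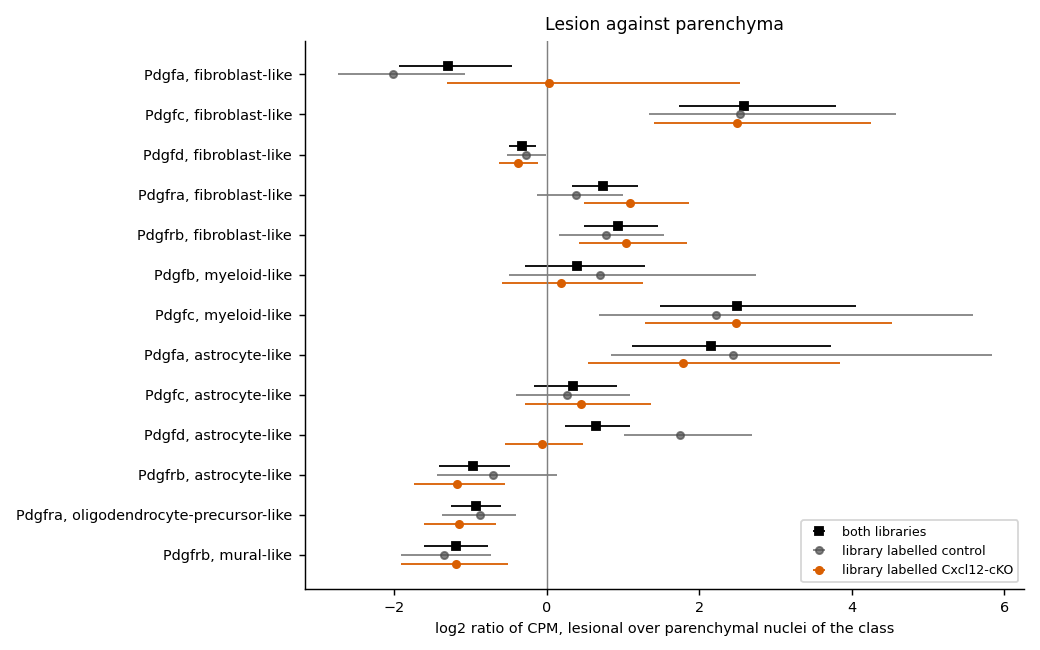
Log2 ratio of CPM in lesional over parenchymal nuclei of a class (x axis) for the genes and classes named on the y axis, with both libraries summed and each alone, and exact 95% counting intervals. Pdgfc lay above 2 in fibroblast-like and myeloid-like nuclei, the receptors in oligodendrocyte-precursor-like and mural-like nuclei lay below 0 in each library, and Pdgfd in astrocyte-like nuclei differed between the libraries.

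The genes that process PDGF ligands or carry receptor signals were described from 7 lists of 68 genes. Between the libraries, 3 of 62 with enough UMIs were called in lesional fibroblast-like nuclei, all in the direction of the Cxcl12-cKO label, where 6.42% of all genes were called, with a median of 0.06 (all genes 0.00). They were Etv4, a transcription factor of the MAP kinase response (3.29 and 6.09 CPM, 0.88), Cspg4, a proteoglycan that binds PDGF-AA (13.1 and 21.8 CPM, 0.74), and A2m, a protease inhibitor that binds growth factors (4.69 and 7.39 CPM, 0.65). Each was higher in both the female and the male mice. No adaptor or effector among 28, no phosphatase or ubiquitin ligase among 7 and no feedback inhibitor among 7 was called.

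In lesional myeloid-like nuclei 9 of 59 pathway genes were called, 3 higher and 6 lower, where 6.94% of all genes were, with a median of −0.01. The 3 of largest size were the immediate-early gene Fos (26.3 and 9.28 CPM), the cytokine inhibitor Socs3 (7.88 and 4.00 CPM, −0.97) and the AP-1 gene Junb (64.9 and 36.9 CPM, −0.81), each lower in both sexes. In lesional astrocyte-like nuclei 2 of 48 were called, against 8.15% of all genes, Stat5a (0.77) and the phosphatase gene Ptpn2 (0.65), both higher. In lesional excitatory-neuron-like nuclei 4 of 45 were called, against 5.82%, all lower, led by Dusp6 (−0.77), Egr1 (−0.60) and Spred1 (−0.57), which are targets or inhibitors of the MAP kinase path. In the parenchyma 5 of 61 were called in excitatory-neuron-like nuclei, against 3.4%, 2 higher and 3 lower, with A2m at 1.45, Socs3 at −0.97 and Ccnd1 at −0.62.

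Between the regions, 26 of 62 pathway genes were called in fibroblast-like nuclei, 23 higher in the lesion and 3 lower, where 21.3% of all genes were called, with a median of 0.49 where the median of all genes was 0.00. Spry2, a feedback inhibitor, had 252 UMIs in the lesion and 0 in the parenchyma, and Ier3, a growth response gene, 446 and 1. These are raw sums over 8227 and 101 nuclei, where 3 parenchymal UMIs equal 6.86 CPM, so the 0 does not show absence. Pik3r1, a regulatory subunit of PI 3-kinase that docks on the receptors, stood at 143.3 against 43.5 CPM (1.68). Receptor turnover and phosphatase genes were higher in 6 of 7. In myeloid-like nuclei 23 of 59 were called, 16 higher and 7 lower, where 22.1% of all genes were called, with a median of 0.42 where that of all genes was −0.12. Stat5a had 220 UMIs in the lesion and 0 in the parenchyma, as raw sums over 3544 and 76 nuclei. There 3 parenchymal UMIs equal 19.2 CPM, so the 0 does not show absence. Sparc, which binds PDGF-B, was at 57.5 against 409.2 CPM (−2.84), and Cblb, a ubiquitin ligase, at 337.3 against 83.1 CPM (1.97). Response genes were lower in 4 of 6.

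Across 26 sums of a class, region and library with at least 50 nuclei, the genes whose pattern was most like that of each PDGF gene were found by Pearson's r of log2(CPM + 1). These points share libraries and depth, so r is a description only. Pdgfrb was nearest to Pdgfrl (0.96), Prrx1 (0.96) and Creb3l1 (0.95), Pdgfra to Alx4, Cped1 and Adamts12 (0.92 each), and Pdgfd to Adamts9, Serpinh1 and Pgm5 (0.95 each). Pdgfb was nearest to Fbxw7 (0.88), Mfhas1 (0.85) and Stab2 (0.84), Pdgfc to Myo7a (0.80), Dennd1a and Camta2 (0.78 each), and Pdgfa to 1700027A15Rik (0.78), Arrdc3 (0.75) and Rassf4 (0.73). Among the PDGF genes themselves r was 0.85 for the 2 receptors, 0.83 for Pdgfd with Pdgfrb and −0.22 for Pdgfb with Pdgfra.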

How the data were processed

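Nuclei from lesion and parenchyma were counted as UMIs of gene features in 4 matrices. The counts were deposited by the authors as filtered gene-by-barcode matrices, made from 3′ libraries with Cell Ranger 9.0.0 and GRCm39 per the submitters' processing notes. No source used here says whether intronic reads were counted. The 12 multiplexing tag features were left out, and features sharing a symbol (52) were kept apart by identifier. Barcodes in the lowest and highest 2.5% of UMIs or genes, or the highest 2.5% of mitochondrial share, over all 4 matrices together were removed. Nuclei were clustered without the PDGF, sex-linked and mitochondrial genes and Cxcl12, Cxcr4 and Ackr3 (3000 variable genes, 30 components, 20 neighbours, resolution 0.25, and 0.5 or 0.3 for subclusters) in scanpy 1.11.5 under Python 3.11.15, with numpy 2.4.6 and scipy 1.17.1. A class was named from at least 3 markers raised in the cluster (detected in at least 10% of its nuclei). Subclusters with at least 25% of nuclei carrying both Xist and Y-linked UMIs were set aside as mixed (1045 nuclei), and 334 glial nuclei stayed unnamed, both decided after the clusters were seen. The doublet caller marked 20 of 11637 and 3 of 11852 barcodes and had not worked, so removing the top 10% of its scores was an alternative.

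UMIs were summed per class, region and library. Levels have exact Poisson intervals, shares Clopper-Pearson intervals and log2 ratios (0.5 UMIs added) exact conditional binomial intervals, all at 95%. With 1 library per group no p-value was computed. The ratio procedure was tested on simulated data. Named were the 6 PDGF genes in classes that held 20 UMIs (values on fewer UMIs were picked after they were seen), the 3 pathway genes of largest ratio among those called in a comparison, and the 3 genes of highest likeness with at least 100 UMIs. In all, 23 other settings and 3 more chosen after seeing the data were run. The PDGF genes and all lists were chosen with earlier results of these data known.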

Additional observations from a re-analysis of the deposited data

Results flagged for a closer look

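Some results had opposite signs in the 2 sexes or libraries. Each sex is 1 mouse per library, the mice were told apart by Xist and Y-linked UMIs, and no difference between sexes or libraries was tested, so the values below are descriptions.

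Among log2 ratios of the library labelled Cxcl12-cKO over control in whole classes of the lesion, Pdgfra in dividing nuclei was 1.15 in female and −1.53 in male mice. In fibroblast-like nuclei Pdgfrb was 0.70 and −0.06, and Pdgfd was 0.036 and −0.14. Pdgfc was 0.81 and −0.16 in myeloid-like nuclei and 1.49 and −1.24 in osteoblast-lineage-like nuclei. In parenchymal excitatory-neuron-like nuclei Pdgfa was −0.23 and 0.27.

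Within subclusters, Pdgfrb in the late-inner-like fibroblast state was 0.31 in female and −0.20 in male mice. Pdgfd was 0.35 and −0.16 in state 1, 0.29 and −0.01 in the dural-like state, and 0.18 and −0.68 in the leptomeningeal-like state. Pdgfc in the F13a1-led myeloid subcluster was 0.43 and −0.25.

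For lesion over parenchyma, Pdgfc in excitatory-neuron-like nuclei had log2 ratios of 0.045 and −0.30 in the libraries labelled control and Cxcl12-cKO. Pdgfd in astrocyte-like nuclei was 1.75 and −0.07 by library, and 1.83 in female and −0.48 in male mice.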

How the results depend on the processing

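Of 389 values recomputed for 58 results, 318 stayed within the counting interval or 1.5-fold range set for them and 67 moved. The other 4 were ratios called in the main setting that changed sign. Sign changes of ratios that were not called, some of them given below, were not counted as such. The cause was not tested. With nuclei classed singly by their markers, lesional levels were 59.9 CPM for Pdgfa and 192 CPM for Pdgfc in myeloid-like nuclei and 438.5 CPM for Pdgfd and 157.4 CPM for Pdgfrb in fibroblast-like nuclei, and the library ratio of Pdgfd there was −0.19. With mixed nuclei returned, a setting chosen after seeing the data, myeloid-like levels were 60.8 (Pdgfa), 115.7 (Pdgfb) and 210.7 CPM (Pdgfc). Pdgfc there was 223.4 CPM at resolution 0.5, 223.6 CPM with no filter and 208.2 CPM as a mean over nuclei, and Pdgfd in fibroblast-like nuclei was 457.6 CPM as a mean over nuclei. At resolution 0.6 the highest fibroblast state had 285.7 (Pdgfc), 784.1 (Pdgfd) and 347.2 CPM (Pdgfrb, then in a late-inner-like state).

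Library ratios (log2) in fibroblast-like nuclei were, with states weighted alike (chosen after seeing the data), 0.18 (Pdgfc), 0.054 (Pdgfd), 0.089 (Pdgfra) and 0.059 (Pdgfrb). As means over nuclei they were 0.15 (Pdgfra) and 0.16 (Pdgfrb). In female and male mice they were 0.036 and −0.14 (Pdgfd), 0.55 and 0.062 (Pdgfra), and 0.70 and −0.059 (Pdgfrb). In myeloid-like nuclei Pdgfc was 0.81 and −0.16 and Pdgfa 0.0025 in females. Pdgfra in parenchymal excitatory-neuron-like nuclei was −0.16 as a mean over nuclei.

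Regional ratios of Pdgfra in fibroblast-like nuclei were 1.39 in females, 1.23 in males and −0.035 as a mean over nuclei. Pdgfd in astrocyte-like nuclei was 1.75 and −0.066 in the libraries and 1.83 and −0.48 in females and males. In males Pdgfc was 1.32 in myeloid-like, Pdgfb −0.91 in excitatory-neuron-like and Pdgfra −0.50 in oligodendrocyte-precursor-like nuclei, and in females Pdgfrb was −0.64 in mural-like nuclei.

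At a log2 ratio of at least 1, pathway calls between libraries were 0 in fibroblast-like, 1 in myeloid-like, 0 in lesional and 1 in parenchymal excitatory-neuron-like nuclei, and between regions 11 in fibroblast-like and 14 in myeloid-like nuclei. After thinning to 1000 UMIs the shares were 14.8% (Pdgfra), 14.0% (Pdgfrb) and 30.7% (Pdgfd) of fibroblast-like and 11.5% (Pdgfb) and 14.7% (Pdgfc) of myeloid-like nuclei.

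No paired analysis was possible because each group was 1 library. With the PDGF genes kept in clustering no oligodendrocyte-precursor-like class formed, so Pdgfra there has no value under that setting. The parenchymal classes compared, other than neurons, held 20 to 101 nuclei, which limits the regional ratios.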
